A study of Mus musculus with 46 samples.

Results

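Elastic fibre and microfibril genes were followed in the left ventricle of infarcted and unoperated mice. The genes are Eln, Fbn1, Fbln1, Fbln2, Fbln5, Mfap2, Mfap4, Mfap5, Ltbp1 and Ltbp2, building blocks of elastic fibres and of the microfibrils around them. They were chosen by name with earlier results of these data known. Each was represented by every probe set that the platform annotation gives to a single one of these symbols. Of the 10 listed genes, 9 had such a probe set, 12 probe sets in all, out of 12393 genes and 20380 probe sets with a single symbol on the array. Fbn1 was not analysed here. The animals were male MRL/MpJ (MRL) and C57BL/6J (C57) mice of 15 to 20 weeks. Hearts were taken 1 or 5 days after the left coronary artery was tied off, and hearts of mice without surgery served as day 0, so that no sham-operated group stands beside them. A biopsy punch separated the infarct with its border, and the rest of the left ventricle was the noninfarct tissue. At day 0 the infarct label names only the matching anterior-apical region of a healthy heart. Each of the 12 groups of strain, day and region held 4 arrays, except the C57 day 0 groups with 3, and 46 arrays were used.

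An elastic fibre has a core of elastin, which is secreted as a soluble monomer and made insoluble by crosslinks that lysyl oxidases form. The core is laid down on a scaffold of fibrillin microfibrils, to which the microfibril-associated proteins Mfap2, Mfap4 and Mfap5 and the fibulins bind. Latent TGF-beta binding proteins attach to the same scaffold, and some of them hold the inactive form of TGF-beta there. In the heart, elastic fibres lie in vessel walls, in the endocardium and epicardium and, after infarction, in the scar.

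Values are log2 of GCRMA intensity, a change is a difference of group means of log2 values given with its standard error (SE), and a gene was called at a limma adjusted p under 0.05. For a gene with several probe sets, the one brightest on average over all arrays is given first. The median log2 intensity of the arrays lay between 4.22 and 4.49, and a gene near or below that level has no exact fold change. Day 1 and day 5 were compared with the same day 0 arrays, so these comparisons share the chance deviations of those arrays. All 8 cardiomyocyte markers of a list were measured, with summed linear intensities from 160000 to 175000 in the day 0 infarct region of MRL and from 166000 to 177000 in that of C57. A pair of libraries went against their strain labels. Of 71 probe sets called between the strains in 1 direction at day 0 and day 1 in both regions, the library labelled MRL day 5 infarct replicate 3 was nearer its labelled strain at 5, the rest of its group at 49 to 54. The library labelled C57 day 5 noninfarct replicate 3 was nearer its labelled strain at 18, the rest of its group at 67 and 68. The first principal component held 52.7% of the variance. On it this MRL-labelled library scored 11 and the rest of its group between 107.9 and 115.7, and the C57-labelled one scored 99.1 and the rest of its group between -30.2 and 35.3. Among the 9 genes, the library labelled MRL day 5 infarct replicate 3 was the lowest of its group for 7, and that labelled C57 day 5 noninfarct replicate 3 was the highest of its group for 7. All arrays kept their labels, and the members' changes at day 5 in MRL infarct and C57 noninfarct tissue are also given without this pair. C57 day 5 infarct replicate 1 stood apart on the first component as well, at 40.5 against 98.8 to 117.2 in its group, and was nearer its own strain at 65 of the 71 probe sets. C57 day 5 noninfarct replicate 1 scored -30.2, below the other three of its group, and was the lowest of its group for 7 of the 9 genes.

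By day 5 the infarct tissue of both strains held far more RNA of nearly all of these genes. In MRL 8 of 9 genes rose and in C57 7 of 9, while 23.6% of all tested probe sets were called higher in MRL and 23.4% in C57. The median change of the 9 genes was 3.31 in MRL and 3.58 in C57, where the medians of all tested probe sets were -0.05 and 0. Among the genes called at day 5, Mfap2, Mfap4 and Ltbp2 started near or below the array medians, so their rises have no order. A probe set was tested only if it exceeded its array's median in at least 3 arrays of the fit. These genes met that filter in infarct tissue only with their day 5 arrays, so their day 5 calls were favoured in advance. The genes that stayed uncalled at day 5 were Ltbp1 in both strains and Fbln1 in C57. At day 1, 1 of 9 genes was called in each strain: Fbln1 was lower in MRL, where 11.1% of all tested probe sets were called lower, and Mfap5 was higher in C57, where 9.39% were called higher. At an unadjusted p under 0.05 the count at day 1 was 4 of 9 in each strain. Of 12834 tested probe sets, 4624 in MRL and 3914 in C57 passed that threshold. Without the 2 libraries nearer the other strain, Fbln1 and Fbln5 were called lower in both strains, 2 of 9 genes against 15.1% of all tested probe sets in MRL and 9.4% in C57, and Mfap5 higher in C57, against 11.4%. The day 1 count was 4 in C57 without C57 day 1 infarct replicate 1. In MRL it was 2 without day 1 infarct replicate 3 and 0 without day 0 infarct replicate 1 or 3 or day 1 infarct replicate 2 or 4. The share of all tested probe sets called in these single-array refits is not given here. In bulk tissue, more cells of a type and more RNA per cell cannot be told apart.

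**Figure D1:**
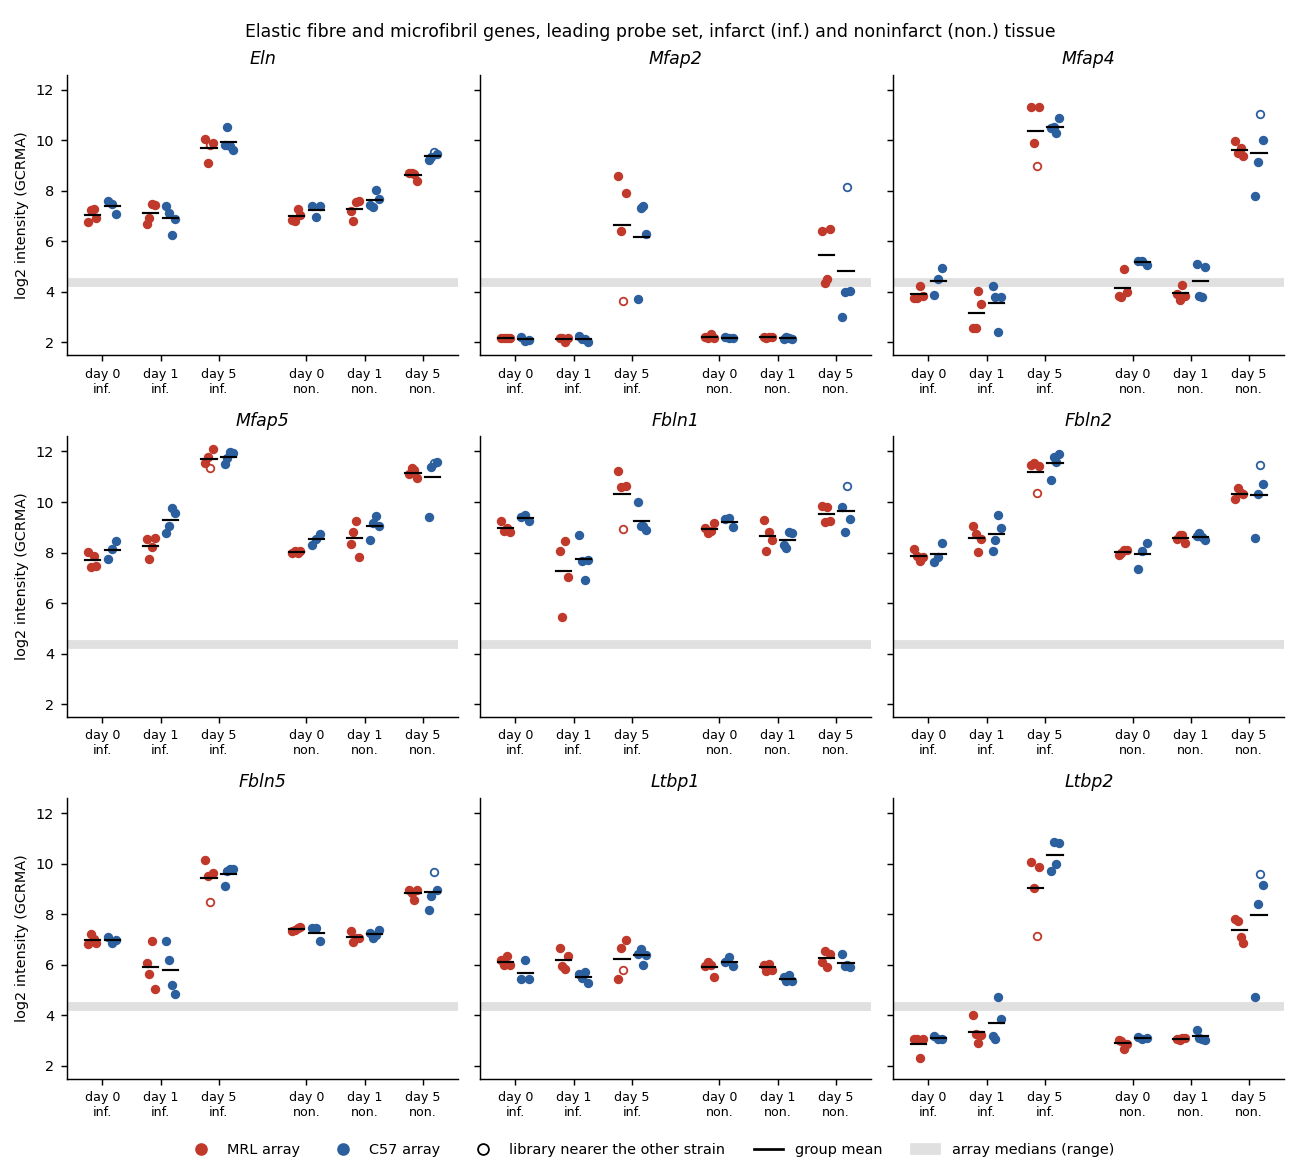
Log2 intensity of the leading probe set of each gene in every array (points), by day and region, MRL left of C57, with group means as bars and the range of array medians as a grey band. Open points are the 2 libraries nearer the other strain. In MRL infarct tissue 8 of the 9 genes rose at day 5, and Ltbp1 was not called.

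Elastin itself was measured clearly in every array. In MRL infarct tissue Eln stood at 6.75, 7.24, 7.30 and 6.94 at day 0, at 6.69, 6.93, 7.46 and 7.45 at day 1, and at 10.06, 9.11, 9.79 and 9.88 at day 5. In C57 infarct tissue it stood at 7.59, 7.46 and 7.09 at day 0, at 7.40, 7.10, 6.24 and 6.88 at day 1, and at 9.83, 10.51, 9.77 and 9.61 at day 5. All day 5 values lay above all earlier ones, and day 1 overlapped day 0 in both strains. From day 0 to day 5 Eln rose by 2.65 ± 0.27 in MRL (adjusted p = 2.7e-07) and by 2.55 ± 0.29 in C57 (1.7e-06). The day 1 changes of 0.07 ± 0.27 in MRL and -0.48 ± 0.29 in C57 were not called (0.87 and 0.28). The second Eln probe set, below the array medians until day 1, rose by 2.91 ± 0.26 in MRL and 2.98 ± 0.28 in C57 at day 5.

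Mfap2, a small glycoprotein of the microfibril that binds fibrillin, was below the array medians in every day 0 and day 1 array. In MRL infarct tissue its log2 values were 2.17 to 2.18 at day 0, 2.03 to 2.17 at day 1, and 8.57, 6.41, 3.62 and 7.90 at day 5. In C57 infarct tissue they were 2.07 to 2.20 at day 0, 2.01 to 2.24 at day 1, and 3.71, 7.33, 7.39 and 6.27 at day 5. In each strain a single day 5 infarct array remained below the medians: the library labelled MRL day 5 infarct replicate 3 and C57 day 5 infarct replicate 1, both among those that stood apart. The rise at day 5 was 4.45 ± 0.76 in MRL (0.00012) and 4.06 ± 0.82 in C57 (0.00073), and 5.45 ± 0.58 in MRL without the library labelled replicate 3.

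Mfap4, which binds elastin and collagen, was also near or below the array medians before infarction. In MRL infarct tissue it was 3.76, 3.76, 4.23 and 3.84 at day 0, 2.57, 2.58, 4.04 and 3.51 at day 1, and 11.31, 9.91, 8.97 and 11.31 at day 5. In C57 infarct tissue it was 3.88, 4.52 and 4.93 at day 0, 4.22, 3.80, 2.40 and 3.78 at day 1, and 10.48, 10.53, 10.28 and 10.87 at day 5. The day 5 values were far above all others in both strains. The rise was 6.48 ± 0.46 in MRL (3.9e-09) and 6.09 ± 0.49 in C57 (2.8e-08), and the day 1 differences of -0.72 ± 0.46 and -0.89 ± 0.49 were not called (0.27 and 0.23).

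Mfap5, a microfibril protein that also binds TGF-beta family ligands, was the gene called higher at day 1. Infarct tissue of MRL had 8.00, 7.43, 7.87 and 7.46 at day 0, 8.52, 7.75, 8.23 and 8.57 at day 1, and 11.55, 11.80, 11.36 and 12.09 at day 5. Infarct tissue of C57 had 7.76, 8.16 and 8.44 at day 0, 8.77, 9.04, 9.76 and 9.55 at day 1, and 11.49, 11.74, 11.97 and 11.95 at day 5. In C57 the day 1 arrays all lay above the day 0 arrays, and in MRL these days overlapped. At day 1 Mfap5 rose by 1.16 ± 0.26 in C57 (0.0047), and the difference of 0.58 ± 0.24 in MRL was not called (0.09). At day 5 it had risen by 4.01 ± 0.24 in MRL (5.8e-10) and 3.67 ± 0.26 in C57 (6.2e-09). The second Mfap5 probe set rose by 4.77 ± 0.33 and 4.63 ± 0.35 at day 5, but its day 1 difference in C57, 1.01 ± 0.35, was not called (0.055).

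Fibulins are secreted glycoproteins that link elastin to microfibrils and basement membranes, and Fbln5 is needed for elastic fibre assembly in mice. Fbln2 was 8.15, 7.86, 7.68 and 7.83 at day 0, 9.05, 8.74, 8.03 and 8.53 at day 1, and 11.47, 11.53, 10.34 and 11.41 at day 5 in MRL infarct tissue. In C57 infarct tissue it was 7.64, 7.83 and 8.39 at day 0, 8.05, 8.51, 9.48 and 8.97 at day 1, and 10.88, 11.76, 11.59 and 11.90 at day 5. Day 5 stood above both earlier days in every array, while day 0 and day 1 overlapped. Fbln2 rose by 3.31 ± 0.31 in MRL (1.4e-07) and 3.58 ± 0.34 in C57 (2.1e-07) at day 5, and its day 1 differences of 0.71 ± 0.31 and 0.80 ± 0.34 were not called (0.11 and 0.12).

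Fbln5 was lower in most day 1 arrays than at day 0. In MRL infarct tissue it was 6.84, 7.23, 7.04 and 6.88 at day 0, 6.07, 5.63, 6.96 and 5.06 at day 1, and 10.16, 9.54, 8.50 and 9.62 at day 5. For C57 infarct tissue the values were 7.12, 6.88 and 6.99 at day 0, 6.93, 6.21, 5.19 and 4.83 at day 1, and 9.13, 9.72, 9.80 and 9.81 at day 5. One array in each strain, MRL replicate 3 and C57 replicate 1, kept a day 1 value within the day 0 range, and the rest lay below it. The day 1 differences of -1.07 ± 0.41 in MRL and -1.20 ± 0.44 in C57 were not called with all arrays (0.068 and 0.069), and were called without the 2 libraries nearer the other strain, whose removal lowers the estimated spread (0.041 and 0.042). By day 5 Fbln5 had risen by 2.46 ± 0.41 in MRL (9.7e-05) and 2.62 ± 0.44 in C57 (0.00015).

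Fbln1, found in basement membranes and elastic fibres, was the fibulin called in MRL alone at day 5. For MRL infarct tissue the values were 9.24, 8.84, 8.96 and 8.82 at day 0, 8.07, 5.46, 8.47 and 7.03 at day 1, and 11.21, 10.59, 8.92 and 10.62 at day 5. In C57 infarct tissue it was 9.41, 9.50 and 9.24 at day 0, 8.71, 7.65, 6.90 and 7.69 at day 1, and 10.01, 9.05, 9.05 and 8.90 at day 5. Every day 1 array lay below every day 0 array in both strains, and at day 5 the MRL arrays other than the library labelled replicate 3 lay above all C57 arrays. Fbln1 fell by 1.71 at day 1 in MRL (log2, SE 0.52, 0.025), and in C57 the difference of -1.65 ± 0.56 was not called with all arrays (0.052) but was without the pair (0.024). At day 5 Fbln1 rose by 1.37 ± 0.52 in MRL (0.037), and by 1.84 ± 0.50 without the library labelled MRL day 5 infarct replicate 3 (0.0039), while the C57 difference was -0.13 ± 0.56 (0.87). The call in MRL at day 5 was lost without MRL day 0 infarct replicate 2, 3 or 4 or without MRL day 5 infarct replicate 1, 2 or 4, with changes from 1.08 to 1.37 and adjusted p from 0.064 to 0.13. The day 1 call in MRL was lost without MRL day 0 replicate 1 or 3 or MRL day 1 replicate 2 or 4, with changes from -1.71 to -1.11 and adjusted p from 0.051 to 0.12. The second Fbln1 probe set rose by 1.46 ± 0.53 in MRL at day 5 (0.03), and its day 1 differences of -1.27 ± 0.53 in MRL and -1.48 ± 0.57 in C57 were not called (0.092 and 0.083).

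Ltbp2 does not bind latent TGF-beta and takes part in microfibril and elastic fibre assembly, while Ltbp1 is a main carrier of latent TGF-beta in the matrix. Ltbp2 was called at day 5 in both strains and Ltbp1 in neither. Ltbp2 was 3.06, 3.08, 2.32 and 3.08 at day 0, 4.01, 3.28, 2.90 and 3.22 at day 1, and 10.09, 9.04, 7.16 and 9.89 at day 5 in MRL infarct tissue. Its values in C57 infarct tissue were 3.19, 3.07 and 3.07 at day 0, 3.18, 3.05, 4.74 and 3.87 at day 1, and 9.73, 10.85, 9.99 and 10.83 at day 5. It was thus below the array medians at day 0 in all arrays and above them at day 5 in all arrays. Ltbp2 rose by 6.16 ± 0.48 in MRL (1.4e-08), by 6.79 ± 0.38 without the pair, and by 7.24 ± 0.52 in C57 (6.7e-09).

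Ltbp1 was above the array medians throughout and changed little. In MRL infarct tissue it was 6.19, 5.98, 6.33 and 6.01 at day 0, 6.67, 5.94, 5.84 and 6.36 at day 1, and 5.44, 6.67, 5.79 and 6.98 at day 5. In C57 infarct tissue it was 5.45, 6.21 and 5.43 at day 0, 5.63, 5.48, 5.73 and 5.27 at day 1, and 6.45, 6.63, 6.01 and 6.40 at day 5. The groups overlapped in MRL on all days, and in C57 day 5 lay above day 1. The day 5 differences from day 0 were 0.09 ± 0.28 in MRL (95% interval -0.49 to 0.67) and 0.68 ± 0.30 in C57 (0.05 to 1.31), neither of them called (0.81 and 0.076). Between day 5 and day 1, Ltbp1 was higher at day 5 by 0.85 ± 0.28 in C57 (0.025), a call lost without C57 day 5 infarct replicate 2 or 4 or C57 day 1 infarct replicate 4 (adjusted p 0.055 to 0.074). In MRL that difference was 0.02 ± 0.28 (0.97).

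Without the library labelled MRL day 5 infarct replicate 3, the day 5 rises in MRL infarct tissue were 2.62 ± 0.29 for Eln, 6.94 ± 0.42 for Mfap4, 4.12 ± 0.26 for Mfap5, 3.59 ± 0.30 for Fbln2 and 2.78 ± 0.41 for Fbln5. All of these were called, and Ltbp1 was not, at 0.23 ± 0.30 (0.53).

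Set against day 1, day 5 infarct tissue held more RNA of 8 of 9 genes in MRL and of 9 of 9 in C57, while 16.3% and 18.5% of all tested probe sets were called higher. Mfap4, below the array medians at day 1, rose by 7.20 ± 0.46 in MRL (2.2e-09) and 6.99 ± 0.46 in C57 (1.7e-09). Fbln5 rose by 3.52 ± 0.41 in MRL and 3.83 ± 0.41 in C57 between day 1 and day 5. Fbln1 rose by 3.08 ± 0.52 in MRL (0.00025) and by 1.52 ± 0.52 in C57 (0.03), where the call was lost without C57 day 5 infarct replicate 1 or 2 or C57 day 1 infarct replicate 2, 3 or 4 (changes 1.24 to 1.59, adjusted p 0.052 to 0.083).

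**Figure D2:**
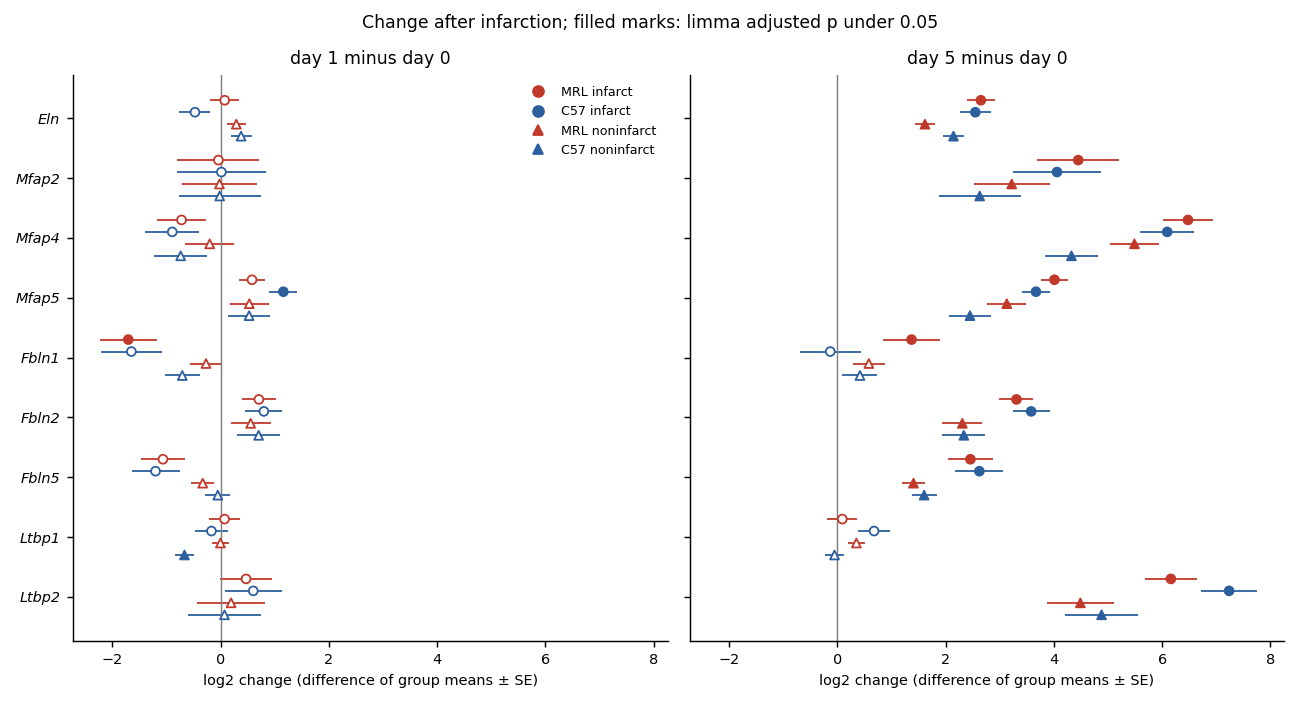
Log2 change from day 0 (horizontal axis, difference of group means, bars are SE) for each gene at day 1 (left) and day 5 (right), with MRL in red, C57 in blue, infarct tissue as circles and noninfarct tissue as triangles. Filled marks have a limma adjusted p under 0.05. At day 5 the filled marks of infarct tissue run from 1.37 for Fbln1 in MRL to 7.24 for Ltbp2 in C57.

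RefSeq promoter windows, from 250 bases before to 50 after a gene's start in GRCm38.p6, were held for 6 of the 9 measured genes. They were searched on both strands for CAGAC, a motif that SMAD proteins, the signal carriers of TGF-beta, can bind. It occurred in 5 of the 6 windows and in 49.6% of 32851 windows of the same length. The windows of Ltbp2 and Fbln5, which rose at day 5 in infarct tissue of both strains, and of Ltbp1, which was not called there, are shown 5′ to 3′ on the gene's strand, so that genes that rose can be read beside one that was not called. Capitals mark CAGAC or its reverse complement GTCTG.
Ltbp2: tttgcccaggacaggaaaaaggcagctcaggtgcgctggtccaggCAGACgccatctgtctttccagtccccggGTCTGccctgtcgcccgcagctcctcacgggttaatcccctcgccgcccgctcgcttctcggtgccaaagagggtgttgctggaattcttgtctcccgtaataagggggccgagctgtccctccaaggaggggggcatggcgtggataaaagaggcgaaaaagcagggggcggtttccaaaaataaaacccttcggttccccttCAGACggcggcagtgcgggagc
Fbln5: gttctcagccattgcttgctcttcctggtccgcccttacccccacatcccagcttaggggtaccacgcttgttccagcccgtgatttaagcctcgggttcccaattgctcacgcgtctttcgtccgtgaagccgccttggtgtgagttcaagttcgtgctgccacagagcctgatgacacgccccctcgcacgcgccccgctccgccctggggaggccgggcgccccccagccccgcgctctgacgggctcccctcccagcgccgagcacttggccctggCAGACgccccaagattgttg
Ltbp1: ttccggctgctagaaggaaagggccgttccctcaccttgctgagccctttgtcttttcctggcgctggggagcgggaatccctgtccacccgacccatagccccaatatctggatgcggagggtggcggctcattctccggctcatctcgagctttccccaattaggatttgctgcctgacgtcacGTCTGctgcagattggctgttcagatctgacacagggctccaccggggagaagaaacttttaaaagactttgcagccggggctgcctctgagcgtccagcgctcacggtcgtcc
The windows are chr12:84876442-84876741 on the minus strand for Ltbp2, with 3 matches, chr12:101819070-101819369 on the minus strand for Fbln5, with 1, and chr17:75005279-75005578 on the plus strand for Ltbp1, with 1. Fbln1 held 2 matches, Mfap2 held 1 and Fbln2 none. The AP-1 motif TGANTCA occurred in 0 of the 6 windows and in 7.81% of all windows, the TEAD motif CATTCC in 1 (Mfap2) and in 14.7%, and TATAAA in 0 and in 13.6%. A match describes the letters of the window only.

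In noninfarct tissue Eln, Mfap2, Mfap4, Mfap5, Fbln2, Fbln5 and Ltbp2 rose at day 5 in both strains. Mfap2 and Ltbp2 met the filter on low values here only through day 5 arrays, so their calls were favoured in advance. In MRL 7 of 9 genes and in C57 7 of 9 were called higher, against 16% and 11.6% of all tested probe sets, and the median change of the 9 genes was 2.31 in MRL and 2.34 in C57. Cell type markers moved with them, and their part was not tested: 8 of 10 fibroblast, 6 of 6 macrophage and 4 of 6 smooth muscle markers rose in each strain. The fibroblast sum was 51100 to 54000 in MRL at day 5, against 9770 to 13100 at day 0, and 23700 to 84900 in C57, against 9540 to 11000. The macrophage sum was 6870 to 8530 in MRL, against 926 to 1110, and 2840 to 19200 in C57, against 1150 to 1600, and the smooth muscle sum 12300 to 16600 in MRL, against 1760 to 2470, and 6270 to 22200 in C57, against 2460 to 2850. Of 8 cardiomyocyte markers 1 fell in C57, and their sum was 131000 to 148000 in MRL, against 162000 to 168000, and 84600 to 165000 in C57, against 163000 to 172000. The share of all tested probe sets called lower is not given here. Mfap4 was 9.96, 9.50, 9.68 and 9.36 at day 5 in MRL noninfarct tissue, against 3.85, 3.80, 4.90 and 4.00 at day 0. In C57 noninfarct tissue it was 7.80, 9.14, 11.02 and 10.01 at day 5, against 5.23, 5.20 and 5.08 at day 0. The days did not overlap in either strain, and the spread in C57 day 5 was the wider. Mfap4 rose by 5.49 ± 0.46 in MRL (3.9e-07) and 4.32 ± 0.49 in C57 (2.5e-05), and by 3.81 ± 0.42 in C57 without the library labelled replicate 3.

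Ltbp2 in noninfarct tissue at day 5 was 7.80, 7.74, 7.12 and 6.87 in MRL, against 3.05, 3.00, 2.66 and 2.86 at day 0. In C57 it was 4.73, 8.43, 9.60 and 9.16, against 3.13, 3.07 and 3.09. C57 replicate 1 lay below the rest of its group, as it did for Eln, Fbln2, Fbln5, Mfap2, Mfap4 and Mfap5. The rise was 4.49 ± 0.62 in MRL (5e-05) and 4.88 ± 0.67 in C57 (0.00016). Eln at day 5 was 8.71, 8.71, 8.65 and 8.38 in MRL, against 6.84, 6.82, 7.27 and 7.06 at day 0. In C57 it was 9.23, 9.34, 9.54 and 9.47, against 7.40, 6.95 and 7.39. Within each group these values were close together, and Eln rose by 1.62 ± 0.18 in MRL (6e-06) and 2.14 ± 0.20 in C57 (3.2e-06).

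The other called changes in noninfarct tissue at day 5 were those of Mfap5, 3.13 ± 0.36 in MRL and 2.45 ± 0.39 in C57, Fbln2, 2.31 ± 0.37 and 2.34 ± 0.40, Fbln5, 1.41 ± 0.21 and 1.60 ± 0.23, and Mfap2, 3.22 ± 0.70 and 2.63 ± 0.75. Adjusted p for these ran from 7.7e-06 for Mfap5 in MRL to 0.021 for Mfap2 in C57. Without the library labelled C57 day 5 noninfarct replicate 3, the Mfap2 rise in C57 was 1.51 ± 0.41 (0.025). The other rises in C57 were then 2.10 ± 0.21 for Eln, 2.27 ± 0.41 for Mfap5, 1.94 ± 0.35 for Fbln2, 1.34 ± 0.19 for Fbln5 and 4.34 ± 0.64 for Ltbp2, all called. The Mfap2 call in C57 was lost without any single C57 day 0 noninfarct array (adjusted p 0.051 to 0.063), and with 32 added to the intensity before log2 the Mfap2 changes were 1.13 in MRL (0.064) and 1.01 in C57 (0.12). Fbln1 was not called, at 0.58 ± 0.30 in MRL (0.16) and 0.42 ± 0.32 in C57 (0.36). Ltbp1 was not called either, at 0.35 ± 0.16 (0.11) and -0.05 ± 0.17 (0.85). At day 1, 0 of 9 genes were called in MRL by limma, against 0.98% of all tested probe sets. At an unadjusted p under 0.05 the count was also 0, against 1544 of 12343 tested probe sets.

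In C57 noninfarct tissue at day 1, 1 of 9 genes was called, against 1.27% of all tested probe sets called lower. This was Ltbp1, which was 5.53, 5.37, 5.59 and 5.37 at day 1, against 6.11, 6.33 and 5.95 at day 0. No day 1 array reached the day 0 range, and Ltbp1 fell by 0.67 (log2, SE 0.17, 0.033). The call was lost without C57 day 0 noninfarct replicate 1 or 2 or C57 day 1 noninfarct replicate 1, 2 or 4 (adjusted p 0.053 to 0.14). Between day 5 and day 1, 7 of 9 genes were called higher in MRL noninfarct tissue, against 9.48% of all tested probe sets, and 9 of 9 in C57, against 11.9%. Without the 2 libraries nearer the other strain Fbln1 joined in MRL, at 0.85 ± 0.24 (0.018), which made 8 of 9 against 13%.

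Infarct and noninfarct tissue of the same day were compared on all 46 arrays, which the fit took as independent because the labels do not say which arrays share a heart. In MRL and in C57 at day 0, 0 of 9 genes were called in limma, where 0.0305% and 0% of all tested probe sets were called. At an unadjusted p under 0.05 the count was 0 in each strain, against 81 and 198 of 13135 tested probe sets. At day 1, 2 of 9 genes were lower in infarct than in noninfarct tissue in each strain, against 4.84% of all tested probe sets called lower in MRL and 3.38% in C57. Fbln5 was 6.07, 5.63, 6.96 and 5.06 in MRL infarct tissue, against 7.34, 6.91, 7.05 and 7.06 in MRL noninfarct tissue. In C57 it was 6.93, 6.21, 5.19 and 4.83 in infarct tissue, against 7.25, 7.06, 7.20 and 7.39 in noninfarct tissue. All C57 infarct arrays were below all noninfarct ones, and MRL infarct replicate 3 alone overlapped. The difference was -1.16 ± 0.34 in MRL (0.027) and -1.44 ± 0.34 in C57 (0.0079). The MRL call was lost without MRL day 1 infarct replicate 2 or 4 or noninfarct replicate 1, 3 or 4 (adjusted p 0.05 to 0.12), and the C57 call without C57 day 1 infarct replicate 3 or 4 (0.056 and 0.061).

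The other genes lower in infarct tissue at day 1 were Fbln1 in MRL and Eln in C57. Fbln1 differed by -1.41 ± 0.44 in MRL (0.039), a call lost without MRL day 1 infarct replicate 2 or 4 or noninfarct replicate 1, 3 or 4 (changes -1.46 to -0.81, adjusted p 0.069 to 0.28). Eln differed by -0.72 ± 0.23 in C57 (0.046), lost without C57 day 1 infarct replicate 3 or 4 or noninfarct replicate 1, 3 or 4 (changes -0.78 to -0.5, adjusted p 0.073 to 0.27). The second probe sets gave -0.87 ± 0.44 for Fbln1 (0.2) and -0.15 ± 0.29 for Eln (0.79), neither called. That of Eln was below the array medians in every C57 day 1 array, so it cannot decide whether the regions differed.

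At day 5 the called genes were higher in infarct tissue, and their number changed with the pair of libraries nearer the other strain and with other single arrays. With all arrays 2 of 9 genes were higher in infarct than in noninfarct tissue in each strain, against 4.48% of all tested probe sets in MRL and 5.06% in C57. Without the pair the count was 7 of 9 in MRL and 6 of 9 in C57, against 16.9% and 17.6%. With other single arrays left out the count was 1 in MRL without infarct replicate 1, 2 or 4 or any noninfarct array. In C57 it was 4 without infarct replicate 1, 1 without infarct replicate 3 or noninfarct replicate 2, and 0 without infarct replicate 2 or 4 or noninfarct replicate 1. For these single-array refits the share of all tested probe sets is not given here. Ltbp2 was called in both strains with all arrays and without the pair. It differed by 1.66 ± 0.58 in MRL (0.048) and 2.37 ± 0.58 in C57 (0.015), and without the pair by 2.29 ± 0.52 (0.00067) and 2.91 ± 0.52 (8.6e-05). With all other arrays kept, the Ltbp2 call in MRL was lost without MRL infarct replicate 1, 2 or 4 or any one MRL noninfarct array (changes 1.32 to 1.8, adjusted p 0.057 to 0.2), and the C57 call without C57 infarct replicate 2 or 4 or noninfarct replicate 1 (changes 1.29 to 2.21, adjusted p 0.065 to 0.16).

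Eln at day 5 differed between the regions by 1.10 ± 0.23 in MRL (0.0042) and by 0.54 ± 0.23 in C57, where it was not called (0.11), although no C57 infarct array fell within the range of the noninfarct ones. Fbln2 differed by 0.86 ± 0.35 in MRL (0.092) and 1.27 ± 0.35 in C57 (0.028). The C57 call was lost without C57 day 5 infarct replicate 2, 3 or 4 or noninfarct replicate 1 or 2 (changes 0.7 to 1.28, adjusted p 0.059 to 0.27). Without the pair Mfap2 differed by 2.19 ± 0.51 in MRL and 2.49 ± 0.51 in C57, against 1.19 ± 0.76 and 1.37 ± 0.76 with all arrays. Mfap4 differed by 1.22 ± 0.42 in MRL and 1.56 ± 0.42 in C57 without the pair, while with all arrays it differed by 0.75 ± 0.47 and 1.05 ± 0.47 and was not called (0.29 and 0.14). Fbln1 differed by 1.29 ± 0.41 in MRL without the pair (0.014) and by -0.05 ± 0.41 in C57 (0.94). With all arrays it differed by 0.82 ± 0.44 in MRL (0.21) and -0.38 ± 0.44 in C57 (0.61), and whether the regional difference itself differs between the strains was not tested.

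**Figure D3:**
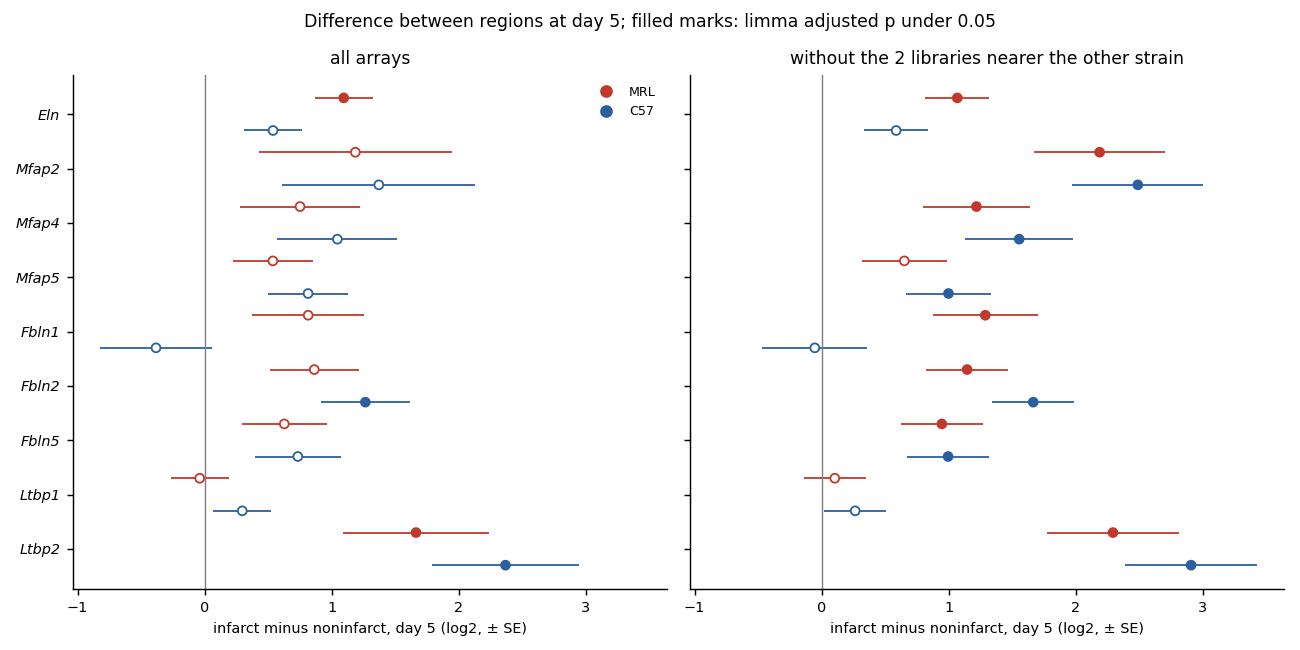
Infarct minus noninfarct difference in log2 intensity at day 5 (bars are SE) for each gene with all 46 arrays (left) and without the 2 libraries nearer the other strain (right), MRL in red and C57 in blue. Filled marks have a limma adjusted p under 0.05. The filled marks number 2 in each strain on the left, and 7 in MRL and 6 in C57 on the right.

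The strains were compared within each region and day. Before infarction 0 of 9 genes were called in infarct or noninfarct tissue by limma, against 1.07% and 1.8% of all tested probe sets. At an unadjusted p under 0.05 the counts were 0 and 1, against 830 of 12834 and 1067 of 12343 tested probe sets. At day 1 in infarct tissue 1 of 9 genes was called, Mfap5, against 0.631% of all tested probe sets called lower in MRL. It was 8.52, 7.75, 8.23 and 8.57 in MRL, against 8.77, 9.04, 9.76 and 9.55 in C57. The strains did not overlap, and the difference was -1.01 ± 0.24 (0.048). This call was lost without any single MRL array or without C57 replicate 2, 3 or 4 (changes -1.11 to -0.84, adjusted p 0.051 to 0.17). It was also lost with arrays centred on their medians (0.073). The second Mfap5 probe set differed by -1.28 ± 0.33 and was not called (0.068). In noninfarct tissue at day 1, 0 of 9 genes were called, against 2.77% of all tested probe sets. An unadjusted p under 0.05 was found for 1 gene and for 1689 of 12343 tested probe sets.

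At day 5, 0 of 9 genes differed between the strains in infarct tissue in limma, against 0.686% of all tested probe sets. An unadjusted p under 0.05 was found for 1 gene and for 711 of 12834 tested probe sets. Fbln1 differed by 1.08 ± 0.52 with all arrays (0.91) and by 1.55 ± 0.50 without the pair (0.13). With arrays weighted by their fit, Fbln1 was called, at 1.57 (0.012). In noninfarct tissue 1 of 9 genes was called, against 0.389% of all tested probe sets called lower in MRL. This was Eln, whose 4 MRL values of 8.38 to 8.71 all lay below the 4 C57 values of 9.23 to 9.54, a difference of -0.78 ± 0.18 (0.031), and -0.73 ± 0.19 without the pair (0.037). The call was lost without any single MRL array or without C57 replicate 2 or 4 (changes -0.81 to -0.7, adjusted p 0.057 to 0.14). The second Eln probe set differed by -1.09 ± 0.32 and was not called (0.12). It was below the array medians in 3 of 4 MRL arrays and 1 of 4 C57 arrays.

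Mfap2 in noninfarct tissue at day 5 was 6.40, 4.34, 4.52 and 6.50 in MRL, against 3.02, 4.00, 8.16 and 4.04 in C57. The value of 8.16 belongs to the library labelled replicate 3. Without it all MRL values lay above all C57 values, and Mfap2 was higher in MRL by 1.75 ± 0.38 (0.0089), while with all arrays the difference was 0.63 ± 0.70 (0.82). All C57 values left were below their array medians, and the MRL values of 4.34 and 4.52 stood against array medians of 4.31 and 4.28. The difference therefore has no exact size. Without the pair 1 of 9 genes was thus higher, against 2.39% of all tested probe sets, and 1 lower, against 1.49%. Ltbp2 in the same tissue differed by -0.60 ± 0.62 (0.81), and by -1.68 without C57 day 5 noninfarct replicate 1 (0.00025). These values turn on single C57 libraries.

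The changes after infarction were then tested against each other between the strains. In infarct tissue 0 of 9 genes were called at day 1 and at day 5 by limma, against 0.0468% and 0.156% of all tested probe sets. In noninfarct tissue 0 of 9 were called on either day, against 0.0081% of all tested probe sets on each day. At an unadjusted p under 0.05 the infarct counts were 0 and 0, against 478 and 443 of 12834 tested probe sets. The noninfarct counts were 1 and 0, against 413 and 227 of 12343. The change of Fbln1 in infarct tissue at day 5 was larger in MRL than in C57 by 1.50 ± 0.77 (95% interval -0.10 to 3.10), and by 1.98 ± 0.71 without the pair (0.47). With arrays weighted by their fit this difference was called, at 1.99 (0.034). For Eln it was 0.10 ± 0.39 (interval -0.71 to 0.92), and for Mfap5 0.34 ± 0.36 (-0.40 to 1.08).

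**Figure D4:**
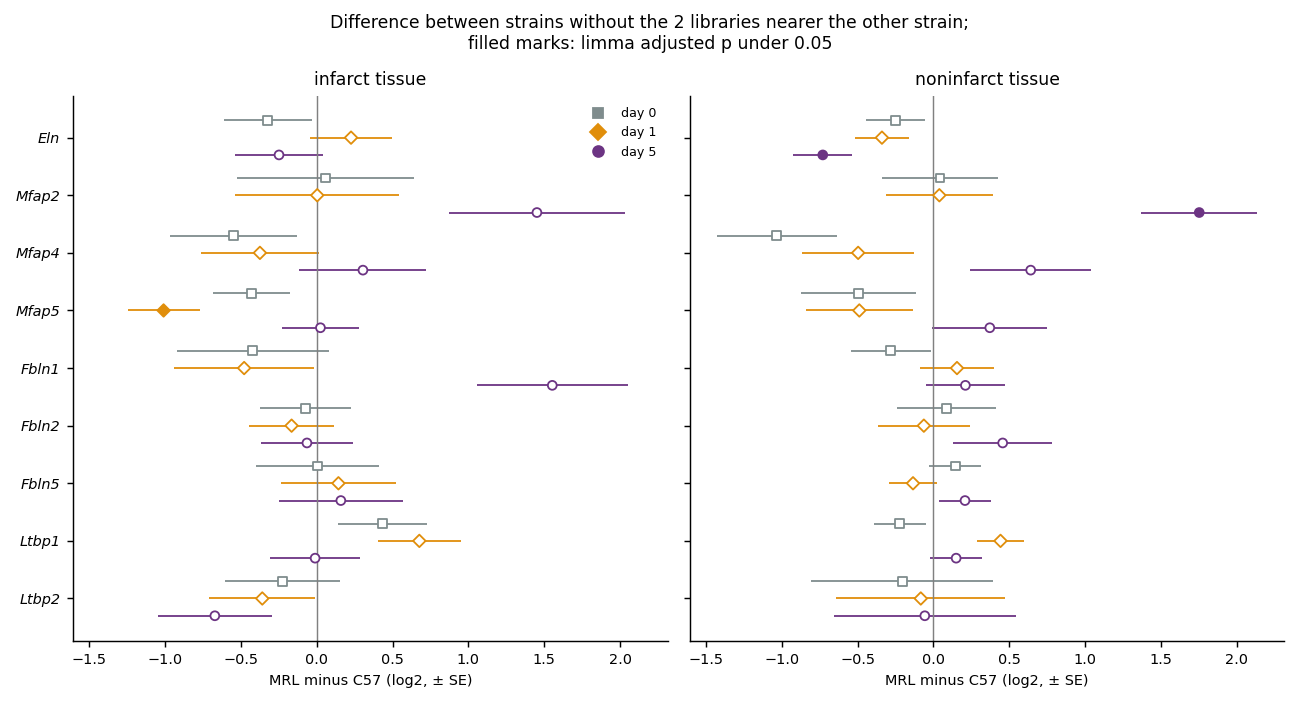
MRL minus C57 difference in log2 intensity (bars are SE) for each gene at day 0 (squares), day 1 (diamonds) and day 5 (circles) in infarct (left) and noninfarct tissue (right), without the 2 libraries nearer the other strain. Filled marks have a limma adjusted p under 0.05 and are Mfap5 at day 1 in infarct tissue (-1.01) and Eln (-0.73) and Mfap2 (1.75) at day 5 in noninfarct tissue. The C57 values of Mfap2 in that last comparison were all below the array medians.

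Other genes of elastic fibre formation were followed as 4 lists chosen with earlier results of these data known. Of 16 further components of elastic fibres and microfibrils, 9 were on the array and 8 were tested in infarct tissue. At day 5, 4 rose and 1 fell in MRL, and 4 rose and 1 fell in C57. Of all tested probe sets, 23.6% in MRL and 23.4% in C57 were called higher in infarct tissue at day 5. These shares stand beside the day 5 counts of genes that rose in all 4 lists, and the share called lower is not given here. Emilin1, a glycoprotein at the border of elastin and microfibrils, rose by 4.60 ± 0.51 in MRL (9.6e-07) and 4.64 ± 0.55 in C57 (3e-06). Fbn2, the fibrillin most used in development, rose by 3.91 ± 0.45 in MRL and 3.65 ± 0.49 in C57, from levels under the array medians. Ltbp3 rose by 1.95 ± 0.36 in MRL and 2.37 ± 0.39 in C57, and Adamts10, which binds fibrillin, by 2.20 ± 0.36 and 1.64 ± 0.39. Adamtsl4 was not among the 4 with the largest change, and it was the gene that fell: its change was -1.56 ± 0.37 in MRL (0.0018) and -1.11 ± 0.40 in C57 (0.029). Ltbp4, Efemp1 and Adamtsl5 were not called.

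Every crosslinking enzyme that could be tested rose at day 5, 3 of 3 in each strain, from a list of 5 of which 4 were on the array. The filter leaves out genes that stay low in nearly all arrays, so a count over tested genes favours genes that rose. Lox, the main lysyl oxidase, rose by 6.91 ± 0.39 in MRL (4e-10) and 8.07 ± 0.43 in C57 (1.7e-10). It had already risen at day 1, by 3.13 ± 0.39 in MRL (1.8e-05) and 3.86 ± 0.43 in C57 (3.2e-06), when Eln had not been called. Loxl1, which is needed for elastic fibre renewal in mice, rose by 4.07 ± 0.32 in MRL and 3.29 ± 0.35 in C57 at day 5. Loxl3 rose by 3.39 ± 0.51 in MRL and 4.35 ± 0.55 in C57.

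Of 10 genes of TGF-beta and its activation, 8 were on the array, and 6 of the 6 tested rose at day 5 in both strains. Thbs1, which can activate latent TGF-beta, rose by 5.41 ± 0.54 in MRL and 6.32 ± 0.58 in C57. The ligands Tgfb3 and Tgfb2 rose by 3.44 ± 0.47 and 2.67 ± 0.37 in MRL, and by 3.77 ± 0.51 and 3.60 ± 0.40 in C57. Itgav, an integrin subunit that binds the latent complex, rose by 2.51 ± 0.34 in MRL and 2.80 ± 0.36 in C57. At day 1, 4 of the 6 had risen in each strain, against 10.4% of all tested probe sets called higher in MRL and 9.39% in C57, among them Tgfb2 by 3.09 ± 0.37 in MRL and 3.75 ± 0.40 in C57, while Tgfb3 had not been called.

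Of 8 elastin-cleaving proteases on the array, 6 were tested, and 6 rose in MRL and 5 in C57 at day 5. The cathepsin Ctss rose by 5.56 ± 0.59 in MRL and 5.45 ± 0.64 in C57, and Ctsk by 5.80 ± 0.68 and 4.05 ± 0.73. Mmp12, macrophage elastase, rose by 3.48 ± 0.76 in MRL and 4.02 ± 0.82 in C57, and Mmp2 by 2.23 ± 0.46 and 2.69 ± 0.49. Without the pair of libraries the counts of these 4 lists in infarct tissue at day 5 against day 0 were the same. Counts between the strains at day 5 moved. Without the pair 2 of 6 proteases were called higher in MRL in each region, against 0 with all arrays. In that refit 2.39% of all tested probe sets were called higher in MRL in noninfarct tissue. The test of strain by infarction at day 5 also called 2 of 6 in each region, against 0. Of the further components 2 of 8 in infarct and 1 of 7 in noninfarct tissue were called higher in MRL, against 0. The shares of all tested probe sets in that refit are not given here for infarct tissue or for strain by infarction. Whether these counts moved with those shares was not tested, so they are not read as particular to the lists.

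**Figure D5:**
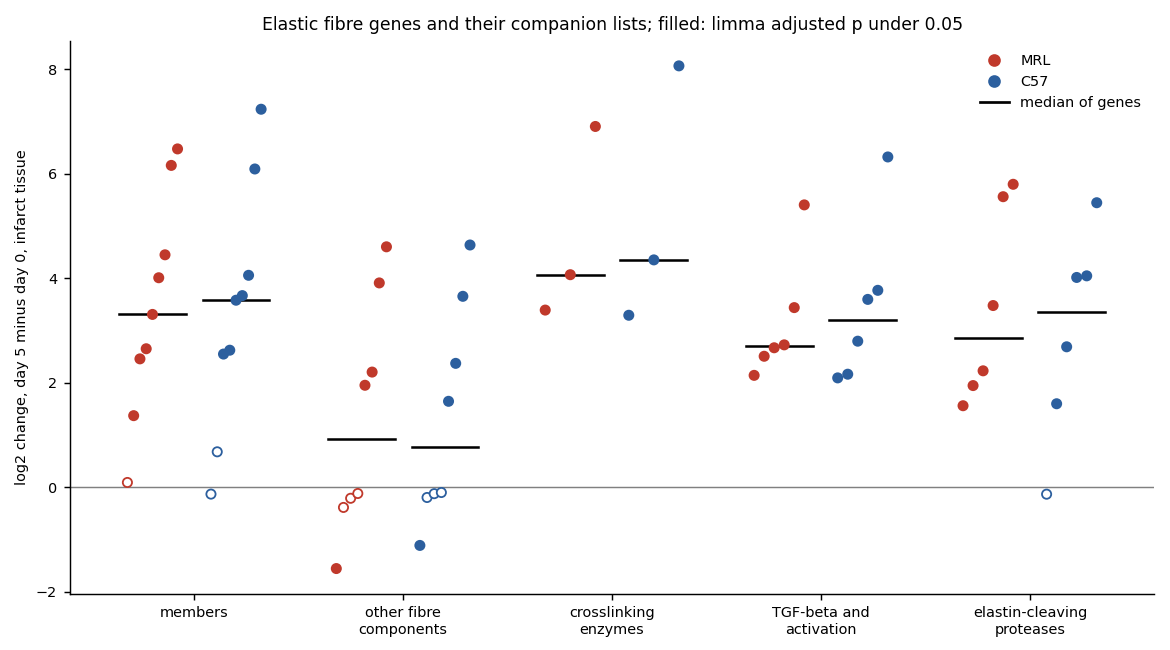
Log2 change from day 0 to day 5 in infarct tissue for the 9 elastic fibre genes and the tested genes of the 4 companion lists (points), MRL left of C57, with the median of each list as a bar. Filled points have a limma adjusted p under 0.05. The medians of the crosslinking enzymes were 4.07 in MRL and 4.35 in C57.

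Markers of several cell types moved with these genes, and their part in the changes was not tested. In infarct tissue at day 5, 9 of 10 fibroblast markers rose in MRL and 10 of 10 in C57. Of all tested probe sets, 23.6% in MRL and 23.4% in C57 were called higher there. The share called lower is not given here, so counts of markers that fell stand without it. The summed intensities that follow are of the markers of each list. The summed linear intensity of the fibroblast markers ranged from 37100 to 90600 in MRL at day 5, against 9200 to 11300 at day 0. In C57 it ranged from 63100 to 82200, against 7200 to 8790. Of 6 smooth muscle and myofibroblast markers, 4 rose in MRL, and 4 rose and 1 fell in C57. Their sum was 12900 to 27900 in MRL at day 5, against 1780 to 2100 at day 0, and 23200 to 32100 in C57, against 2250 to 3000. All 6 macrophage markers rose in each strain, with sums of 3780 to 27100 in MRL, against 688 to 994, and of 10800 to 21000 in C57, against 1120 to 1560. Cd14 and Itgam among them, and the fibroblast marker Fap, were below the array medians in every day 0 array. Cardiomyocyte markers fell, 7 of 8 in MRL and 6 of 8 in C57, with sums of 53200 to 159000 in MRL, against 160000 to 175000, and of 72600 to 143000 in C57, against 166000 to 177000. Of 5 endothelial markers 1 rose in MRL and 1 fell in C57. Of 5 neutrophil markers 2 could be tested, S100a8 and S100a9, which rose at day 1 in both strains and regions and were below the array medians in all day 0 arrays. In infarct tissue at day 1, 10.4% of all tested probe sets were called higher in MRL and 9.39% in C57. The shares called higher in noninfarct tissue at day 1 are not given here. There S100a8 and S100a9 met the filter on low values only through day 1 arrays, so their calls were favoured in advance. Their sum in infarct tissue at day 1 was 950 to 2910 in MRL, against 17.9 to 19.9 at day 0, and 3080 to 4590 in C57, against 18.3 to 21. At day 1 the fibroblast sum was 6440 to 13700 in MRL infarct tissue and 6060 to 7870 in C57. The single tested marker of 5 for epicardium was not called. The Gapdh 3′ minus 5′ log2 difference, a sign of RNA quality, ranged from -0.13 to 0 in MRL infarct tissue at day 5, against -0.28 to -0.18 at day 0, and from -0.08 to 0.73 in C57, against -0.22 to -0.14.

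The pattern over the 12 group means was compared with that of 7640 other genes by Pearson's correlation, as a description in which the day 5 rise shared by many genes weighs heavily. The closest were C1qa for Eln (0.984), Birc5 for Mfap2 (0.999), Fxyd6 for Mfap4 (0.996) and Postn for Mfap5 (0.986). For the fibulins they were Islr for Fbln1 (0.97), C3ar1 for Fbln2 (0.989) and Wls for Fbln5 (0.984), and for the binding proteins Senp2 for Ltbp1 (0.908) and Cybb for Ltbp2 (0.993). Ltbp1 thus had the lowest closest match of the 9. Loxl1 was among the 3 closest to Mfap5 (0.983).

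Within groups, where the day 5 rise is removed, deviations from the group means were correlated between genes, as a description over arrays of which some may come from the same heart. Over 46 arrays Fbln2 and Ltbp2 correlated at 0.85, Fbln2 and Mfap5 at 0.74, and Mfap5 and Ltbp2 at 0.66. Without the pair of libraries these were 0.79, 0.74 and 0.64. The low library C57 day 5 noninfarct replicate 1 stayed in both sets of arrays. Its Fbln2, Mfap5 and Ltbp2 values were 8.57, 9.41 and 4.73, against group means of 10.27, 10.97 and 7.98. How far these correlations rest on it was not tested. Fbln1 and Fbln5 correlated at 0.59, and at 0.44 without the pair. Eln correlated with Fbln2 at -0.24 and with Ltbp2 at -0.02 in the same arrays, although their group means correlated at 0.95 and 0.97. Ltbp1 correlated with the other genes between -0.17 and 0.11.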

How the data were processed

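Total RNA of heart tissue was hybridized to Affymetrix MOE430A arrays, and the authors deposited linear intensity values per probe set, for which the submitters' processing notes name GCRMA (version not given in the sources used here). No pseudocount was added before log2 (smallest value 1.03). Of 22690 probe sets, 64 controls were left out. The replicates are biological per the labels, and array number limits precision. The members and gene lists were chosen with earlier results of these data known. The 28 comparisons used lmFit and eBayes of limma 3.58.1 under R 4.3.3 (two-sided, Benjamini-Hochberg over all tested probe sets), within a region on 23 arrays and between regions on 46. A probe set was tested if it exceeded its array's median in at least 3 arrays of the fit (12834, 12343 and 13135 for infarct, noninfarct and both), which all 12 probe sets here did. Mfap2, Ltbp2 and the second Eln probe set did so only with day 5 arrays in each region, and Mfap4 in infarct tissue. Their calls of day 5 against earlier days are thus not independent of the filter. From each other list, up to 4 called genes with the largest change at day 5 were named, and all crosslinking enzymes. Alternatives covered the filter, normalization, an offset of 32, the arrays in the fit, array weights, a replicate block, probe set averages and arrays left out. The fit was tested on simulated data.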

Additional observations from a re-analysis of the deposited data

Results flagged for a closer look

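Of 90 combinations of gene and group with 4 arrays, 7 held an array far from the other three by Dixon's ratio of gap to range, 5 of them at day 5, where chance marks about 1 in 20. Fbln1 in C57 day 5 infarct tissue (ratio 0.865) had 10.01 in replicate 1, the others 8.9 to 9.05. Fbln5 in the same group (0.864) had 9.13 in replicate 1, the others 9.72 to 9.81. Fbln2 in MRL day 5 infarct tissue (0.897) had 10.34 in the library labelled replicate 3, the others 11.41 to 11.53. Mfap5 in C57 day 5 noninfarct tissue (0.914) had 9.41 in replicate 1, the others 11.39 to 11.57, and Ltbp1 there (0.913) had 6.44 in replicate 1, the others 5.94 to 5.98. Mfap2 in MRL day 1 infarct tissue (0.955) had 2.03 in replicate 3, the others 2.17, and Ltbp2 in MRL day 0 infarct tissue (0.971) had 2.32 in replicate 3, the others 3.06 to 3.08, both below the array medians.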

How the results depend on the processing

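No alternative reversed a called change of any of the 9 genes. Over all genes, comparisons and alternatives, 4474 values kept their side of the threshold, 104 calls were lost and 82 were gained. A further 56 uncalled values moved by more than their SE. The 4474 include uncalled values that moved by no more than their SE, whose direction was not checked. The cause was not tested, except that fewer arrays or more probe sets change the adjustment by construction. Counts of called genes that moved by over 1.5 times are given in the order MRL, then C57. The counts for day 5 against day 0 and day 1 in either region did not move so far. The counts below stand without the share of all tested probe sets called in the same fit. Whether a count moved with that share was not tested.
Infarct tissue at day 1, main counts 1 and 1: the counts were 2 and 2 with arrays centred, 2 and 3 in a fit of all 46 arrays, 4 and 4 with array weights, 2 and 3 without the 2 libraries nearer the other strain (an alternative chosen after seeing the data), and 3 and 4 without the 3 libraries that stand apart. With no filter the MRL count was 0, and quantile normalization or the offset of 32 gave 2 in C57. Leaving out 1 array gave 0 to 2 in MRL and 1 to 4 in C57.
Noninfarct tissue at day 1 in C57, main count 1: 0 in a fit of all 46 arrays, and 0 to 1 with 1 array left out. 
Strains in infarct tissue at day 1, main count 1: 0 with no filter, with centred arrays or with all 46 arrays, and 0 to 1 with 1 array left out. With array weights, 1 gene differed at day 5 in infarct tissue and 1 in the test of strain by infarction, where the main counts were 0. Strains in noninfarct tissue at day 5, main count 1: 0 with all 46 arrays, 2 without the pair or the 3 libraries, and 0 to 2 with 1 array left out.
Regions at day 1, main counts 2 and 2: 1 and 1 with no filter, with the offset and with probe set averages, 0 and 0 with only the arrays of the groups compared, 1 in C57 with quantile normalization, and 0 to 2 in each strain with 1 array left out. Regions at day 5, main counts 2 and 2: 7 and 6 without the pair or the 3 libraries, 8 and 5 with array weights, 0 and 0 with only the arrays compared, 1 in MRL with no filter or centred arrays, 1 to 7 in MRL and 0 to 6 in C57 with 1 array left out.
Replicate numbers were shared by the regions and groups, and the labels do not say that a number marks a heart. Same-numbered infarct and noninfarct arrays correlated in their deviations from 0.34 to 0.56 in MRL day 1 and from 0.23 to 0.43 in C57 day 0, where each correlated best with its own number, and from -0.46 to 0.77 in the other four groups. With the replicate number as a block, C57 infarct tissue at day 1 had 2 called genes and the regions at day 5 in C57 had 4. The MRL day 1 regional differences of Fbln1 and Fbln5 were called in that fit too (limma adjusted p 0.017 and 0.012). The block is the bare replicate number, so the fit cannot decide how arrays of the same heart bear on these calls.
Signals near the array medians limit Mfap2, Ltbp2, Mfap4 at day 0 and the second Eln probe set.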
